A study of Homo sapiens with 6 samples.

Results

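The genes described here encode the Sec61 translocon and the vesicle machinery that carries proteins between the endoplasmic reticulum (ER) and the Golgi. They were taken by symbol alone, as every gene in the authors' deposited table whose name begins with SEC and a digit, TMED and a number, or TRAPPC and a digit, together with the COPI coat genes (COPA, COPB, COPE, COPG and COPZ) and the GTPases SAR1A and SAR1B. This rule took 63 of 16953 genes and used no measured value. RNA was sequenced from H1048, a human small cell lung cancer line, after 48 h with either ISP-I (isovalerylspiramycin I, a macrolide) at 10 µM or its solvent DMSO. There were 3 samples in each of the 2 groups. The authors' table compares library set D to F with library set A to C, and no label states which set received ISP-I. Every difference below is therefore D to F over A to C. Whether samples came from separate cultures is stated only as biological replication in the series' design text.

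Proteins destined for secretion or for membranes enter the ER through the Sec61 channel, where the signal peptidase removes their signal peptides. Cargo then leaves ER exit sites in vesicles coated by COPII, which the GTPase SAR1 assembles, and vesicles coated by COPI return escaped proteins and receptors from the Golgi. p24 proteins of the TMED family select cargo for both coats. TRAPP complexes tether vesicles and activate RAB GTPases, and SEC22B belongs to the SNAREs that fuse membranes. The unfolded protein response is known to enlarge this machinery through the transcription factors XBP1 and ATF6. The title of the series names ER stress, so the comparison bears on how far the transport genes differed between the sets.

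Most members were modestly higher in D to F. In the authors' deposited table, 34 of the 61 members with an adjusted p (55.7%) were higher at an adjusted p under 0.05, against 29.7% of all 15976 genes with one. A further 14 members (23.0%) were lower, against 27.9% of all genes, and 13 were not called. The other 2 members, SEC14L4 and SEC14L6, had no usable adjusted p. The changes were small. Only 8 members (13.1%) were called and at least 2-fold higher, close to the 12.8% of all genes. At least 2-fold lower were 3 (4.92%), against 11.3% of all genes. Without the SEC14-like genes, which are not part of the transport machinery, 6 of 57 (10.5%) were at least 2-fold higher and 3 (5.26%) lower. The median log2 fold change was 0.41 over the members and 0.06 over all genes. Among called genes the median absolute log2 fold change was 0.66 for the members and 0.86 for all genes. The deposited table holds no standard errors, and values per library were not used, so no spread between replicates is given beside any fold change.

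**Figure D1:**
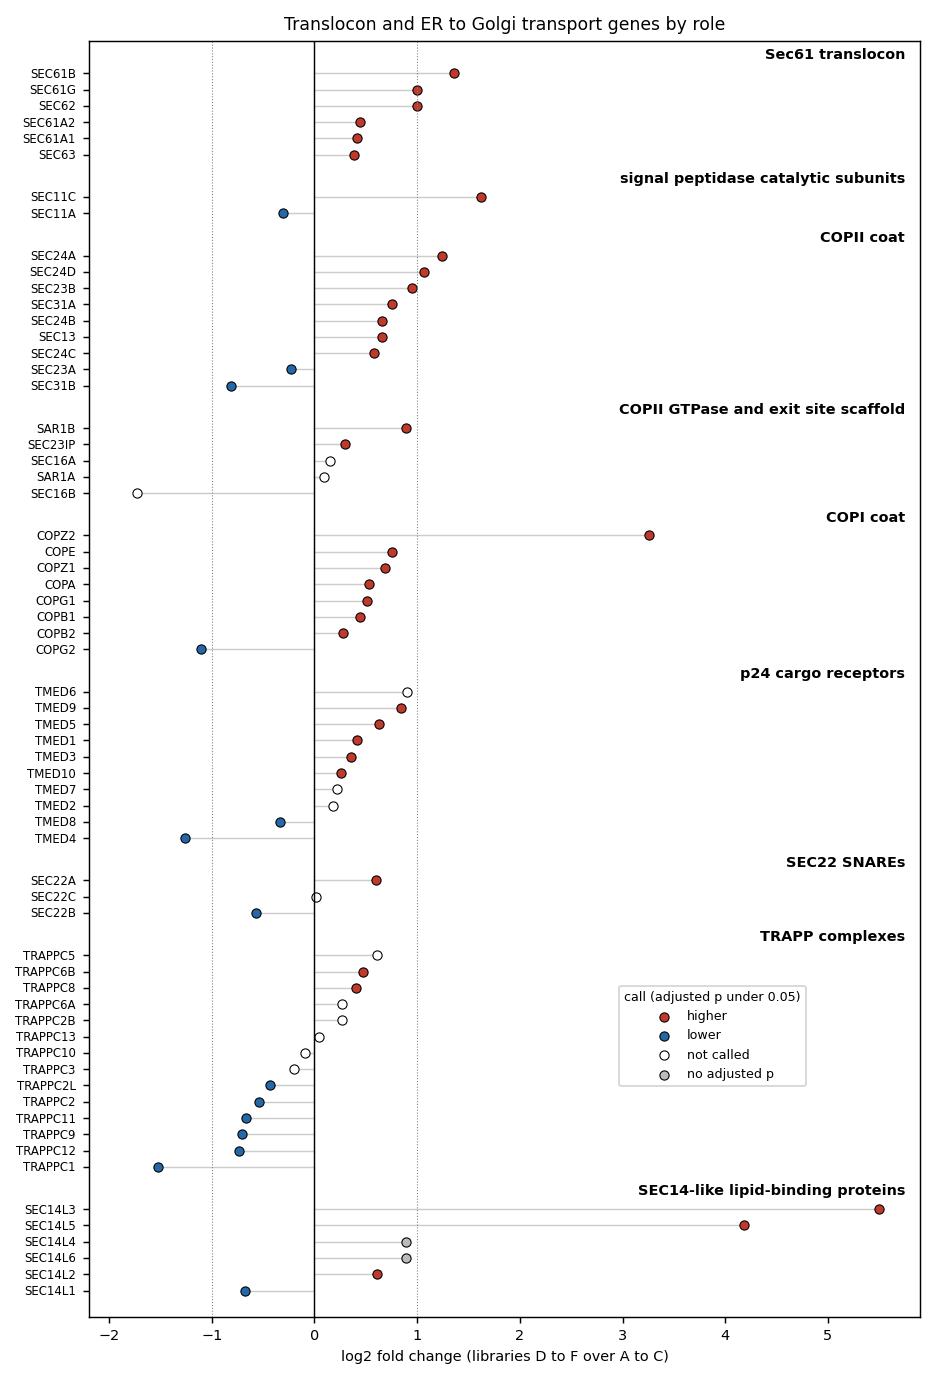
Deposited log2 fold change of each of the 63 members (x axis, libraries D to F over A to C), grouped by role, with filled points for genes called at an adjusted p under 0.05 and dotted lines at 2-fold. All 6 translocon genes lie right of 0, whereas 6 of the 14 TRAPP genes are called lower.

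**Figure D2:**
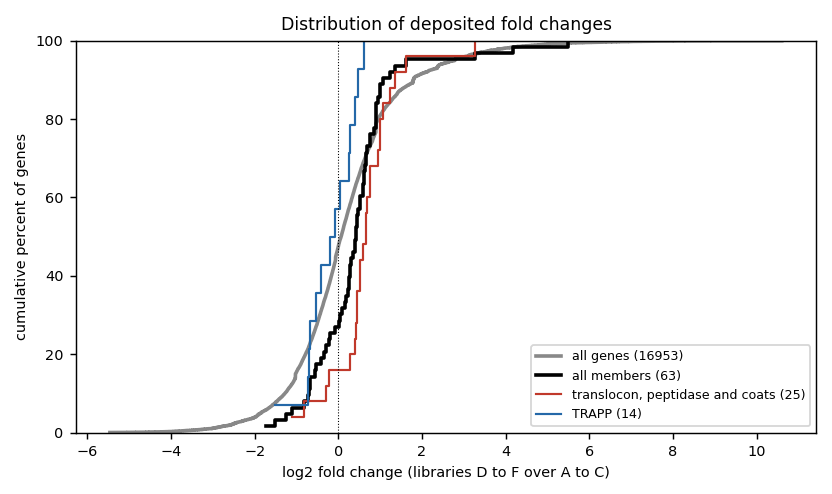
Cumulative percent of genes (y axis) by deposited log2 fold change (x axis) for all 16953 genes, all 63 members, the 25 genes of the translocon, peptidase and coats, and the 14 TRAPP genes. The members cross 50% at 0.41 and all genes at 0.06.

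The promoters of the members were searched for sequences known from the unfolded protein response, because many members were higher together. Of the 63 members, 58 matched an entry in the RefSeq promoter table (GRCh38.p14) by symbol; SEC24D, TMED4, TMED9, TRAPPC8 and TRAPPC9 had none. In the 250 bases before each annotated start, on both strands, the XBP1 core TGACGTG was present for 6 of the 58 members (10.3%). The core was present for 561 of the 27305 genes in the promoter table (2.05%), which were not limited to genes measured here. Counted by promoter, since some genes have several starts, it was present in 8 of 76 member promoters (10.5%) and in 1.68% of all 35116. The full ER stress element (CCAAT, a gap of 9 bases and CCACG) matched none of the member promoters and 0.0916% of the genes in the promoter table. Its second form (ATTGG, 1 base and CCACG) also matched no member, and matched 0.0659% of the genes in the promoter table. Both exact strings are so rare over all genes that finding none among 58 members says nothing about these members. CCACG, which both forms share, can overlap the core read on the other strand (CACGTCA). A match is a description of letters and does not show that a factor binds there. No comparison was made with promoters of similar base composition, so the shares are a description only.

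The 6 matches are shown to let their flanks be compared, each read 5′ to 3′ on the strand of the match, with the core in capitals and 30 bases in all. Positions are on GRCh38.p14.
SEC24A (chr5:134648594-134648623, plus strand): cgtgagagtcggTGACGTGgcggcgaggcc
SEC62 (chr3:169966780-169966809, minus strand): cccggttccctcTGACGTGgagcgaggagg
SEC13 (chr3:10321237-10321266, plus strand): cctatcctccagTGACGTGcgagaccagag
COPB1 (chr11:14499840-14499869, plus strand): agagtccttggcTGACGTGgaagggggtgg
COPB2 (chr3:139389824-139389853, plus strand): cactaagggccgTGACGTGgtgccgctgag
SEC16B (chr1:177984298-177984327, minus strand): gttctgggcagcTGACGTGgcaacacagtt

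In all of these except SEC13, the base after the core is g, and in SEC13 it is c. The core began 179 bases before the start of SEC24A, 47 before that of COPB1, 31 before that of SEC16B and 16 before that of SEC62. SEC13 and COPB2 each have starts at different positions, which put the same match 143 or 214 bases upstream in SEC13 and 162 or 195 in COPB2. In GENCODE 29 the match upstream of SEC24A lies within an exon of SAR1B, and those of COPB1 and SEC62 lie within exons of other transcripts of the same genes. The COPB2 match lies within an exon of the antisense gene AC097103.2 and the SEC16B match within an exon of the readthrough gene CRYZL2P-SEC16B, so that the SEC13 match is the only one outside any annotated exon. Of these 6 genes, 5 were called higher in the authors' deposited table and SEC16B was not called. Of the 52 members with a promoter entry and no match, 26 were called higher and 12 lower, and 2 had no usable adjusted p. Over all genes with an adjusted p, 29.7% were called higher and 27.9% lower. The median log2 fold change was 0.55 for the 6 members with a match and 0.40 for the 52 without. The difference between these groups was not tested.

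**Figure D3:**
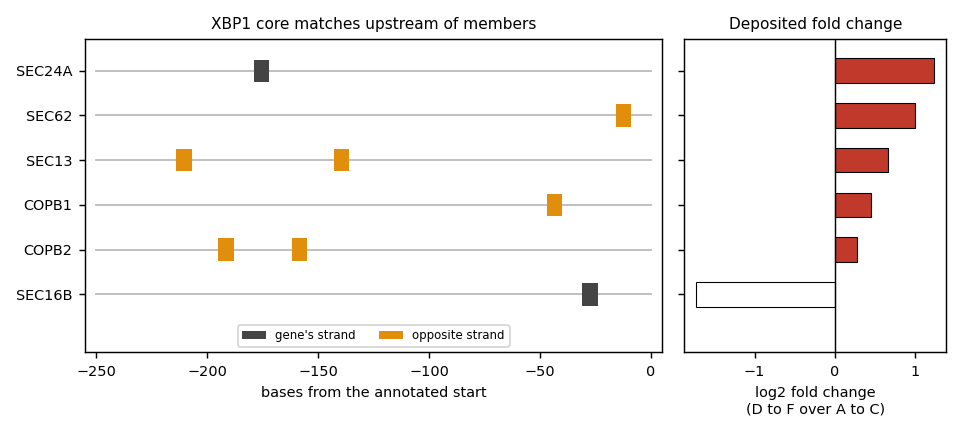
Left, position of each XBP1 core match in bases from the annotated start (x axis) for the 6 members that have one, with bars coloured by strand; SEC13 and COPB2 show their single match once from each start. Right, their deposited log2 fold changes, from 1.24 for SEC24A to -1.73 for SEC16B, which was not called (open bar).

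All 6 genes of the Sec61 translocon were higher in D to F. SEC61B, the small beta subunit of the channel (chromosome 9, 99222064 to 99230615 on GRCh38), was 2.57-fold higher in the authors' deposited table (log2 fold change 1.36, adjusted p = 9.33e-25). SEC61G, the other small subunit, was 2.00-fold higher there (adjusted p = 1.38e-17). SEC62, which helps small and weakly targeted precursors into the channel and also acts as a receptor for clearing surplus ER, was 1.99-fold higher (adjusted p = 3.28e-21). The pore-forming alpha subunits differed less than the small subunits in the deposited values. SEC61A1 had a log2 fold change of 0.42 (adjusted p = 4.95e-06) and SEC61A2 of 0.44 (adjusted p = 0.00579). SEC63, which recruits the chaperone BiP to the channel, stood at 0.39 (adjusted p = 1.98e-05).

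The alternative catalytic subunits of the signal peptidase went in opposite directions. SEC11C (chromosome 18, 59139477 to 59158836) was 3.07-fold higher in the authors' deposited table (adjusted p = 4.16e-55), the smallest p of any member, and ranked 333 of all 16953 genes by p. SEC11A was 1.24-fold lower (adjusted p = 0.0132). The SEC11A call ended at an adjusted p threshold of 0.01.

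COPII coat genes were mostly higher, with exceptions in the SEC23 and SEC31 families. Of 9 coat genes 7 (77.8%) were higher and 2 (22.2%) lower, against 29.7% and 27.9% of all genes. The median log2 fold change was 0.66. All 4 SEC24 genes, whose proteins bind cargo in the inner coat, were higher. SEC24A (chromosome 5, 134648789 to 134727823) was 2.37-fold higher (adjusted p = 1.29e-35) and SEC24D (chromosome 4, 118722823 to 118838683) 2.09-fold (adjusted p = 1.50e-20) in the authors' deposited table. SEC24B and SEC24C were 1.58-fold and 1.50-fold higher (adjusted p = 3.52e-11 and 2.23e-09). SEC23 proteins activate the GTPase of SAR1 and pair with SEC24. SEC23B was 1.93-fold higher (adjusted p = 7.78e-29), whereas SEC23A was 1.17-fold lower (adjusted p = 0.0295), a call that ended at a threshold of 0.01. In the outer coat, SEC31A was 1.69-fold higher (adjusted p = 1.14e-09) and its partner SEC13, which is also a nuclear pore protein, 1.58-fold higher (adjusted p = 6.49e-11). SEC31B was 1.76-fold lower (adjusted p = 6.20e-05).

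The proteins that start a COPII vesicle were less uniform. SAR1B, the isoform whose loss causes chylomicron retention disease, was 1.86-fold higher in the authors' deposited table (adjusted p = 3.30e-15). Its paralogue SAR1A had a log2 fold change of 0.09 and was not called (adjusted p = 0.418). The exit site scaffold SEC16A stood at 0.15 (adjusted p = 0.312). SEC16B had the lowest deposited log2 fold change of all members, -1.73, but was not called (adjusted p = 0.143). SEC23IP, a phospholipase-like protein that binds SEC23, was 1.23-fold higher (adjusted p = 0.00304).

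**Figure D4:**
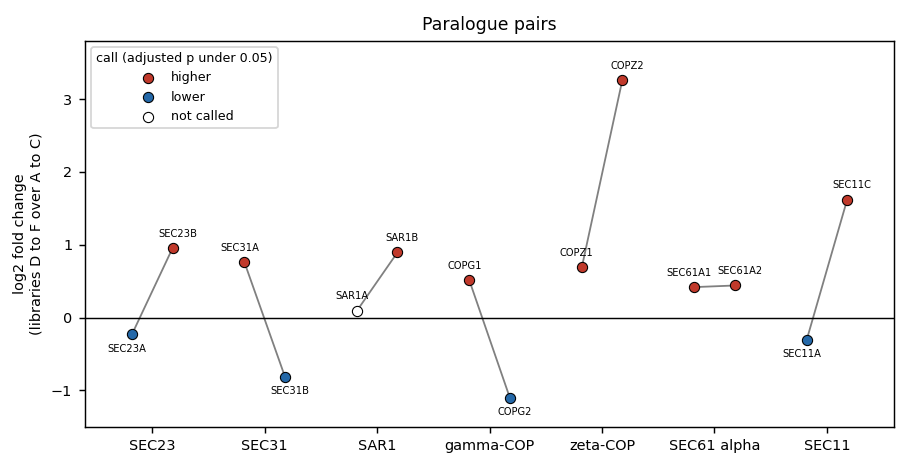
Deposited log2 fold changes (y axis) of 7 paralogue pairs, joined by lines and coloured by call. SEC23, SEC31, gamma-COP and SEC11 (added after its values were seen) each hold 1 gene called higher and 1 called lower.

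COPI coat genes were higher except for COPG2. Of the 8 genes 7 (87.5%) were higher and 1 (12.5%) lower, against 29.7% and 27.9% of all genes, with a median of 0.52. The subunits without a paralogue ranged from 0.27 to 0.76 in the authors' deposited table. COPA was at 0.53 (adjusted p = 1.39e-06), COPB1 at 0.45, COPB2 at 0.27 (adjusted p = 0.00243) and COPE at 0.76 (adjusted p = 2.14e-13). COPG1, the usual gamma subunit, was 1.42-fold higher (adjusted p = 1.22e-07). Its alternative COPG2 (chromosome 7, 130506238 to 130668748) was 2.15-fold lower (adjusted p = 1.43e-18). Both zeta subunits were higher, COPZ1 by 1.61-fold (adjusted p = 6.88e-13) and COPZ2 (chromosome 17, 48026167 to 48038030) by 9.56-fold (adjusted p = 7.87e-12). COPZ2 thus had a larger fold than COPZ1 with a similar p. Levels, which would show how much of the zeta-COP mRNA each gene supplies, were not analysed here.

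Of the 6 paralogue pairs chosen by rule, SEC23, SEC31 and gamma-COP held one gene called higher and one called lower in the authors' deposited table, or 3 of 6. The SEC11 pair, added after its values were seen, makes 4 of 7. In zeta-COP and SEC61 alpha both genes were higher, and of the SAR1 genes 1 was called. Among other related members, all 4 SEC24 genes were higher, neither SEC16 gene was called, and of TRAPPC6A and TRAPPC6B the latter was higher. The difference between the genes of a pair was not tested. No share was computed over other pairs of genes, so how unusual these counts are cannot be judged.

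The p24 cargo receptors included genes of each call. Of 10 TMED genes 5 (50%) were higher, 2 (20%) lower and 3 not called, with a median of 0.30. Over all genes 29.7% were higher and 27.9% lower. TMED9, which has been linked to the retention of misfolded cargo, was 1.80-fold higher in the authors' deposited table (adjusted p = 2.62e-18). TMED5 was 1.54-fold higher (adjusted p = 1.32e-06), and TMED1, TMED3 and TMED10 ranged from 0.26 to 0.41 on the log2 scale. TMED4 (chromosome 7, 44577894 to 44582287) was 2.40-fold lower (adjusted p = 4.01e-37), the smallest p among the members that were lower. TMED8 was 1.27-fold lower (adjusted p = 0.00242). TMED2, TMED6 and TMED7 had positive log2 fold changes of 0.18, 0.90 and 0.22 and were not called.

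The 3 SEC22 genes each had a different call. SEC22B, the SNARE that acts between ER and Golgi, was 1.48-fold lower in the authors' deposited table (adjusted p = 7.22e-08). SEC22A was 1.51-fold higher (adjusted p = 0.00104), and SEC22C stood at 0.01 (adjusted p = 0.943).

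TRAPP genes did not share the pattern of the coats. Of 14 genes 6 were lower, 2 higher and 6 not called, and their median log2 fold change was -0.14, against 0.66 for the 17 COPII and COPI coat genes, of which 14 were higher and 3 lower. Of the TRAPP genes 42.9% were lower and 14.3% higher, against 27.9% and 29.7% of all genes. The differences between the families and from all genes were not tested. TRAPPC1, a subunit of the core shared by all TRAPP complexes (chromosome 17, 7930345 to 7932123), was 2.87-fold lower in the authors' deposited table (adjusted p = 6.60e-23). TRAPPC2 and TRAPPC2L, also of the core, were 1.45-fold and 1.35-fold lower (adjusted p = 0.000908 and 0.0221), and TRAPPC6B was 1.38-fold higher (adjusted p = 0.000161). The TRAPPC2L call ended at a threshold of 0.01. TRAPPC9, which marks the TRAPPII complex, was 1.63-fold lower (adjusted p = 2.27e-06), and its partner TRAPPC10 stood at -0.09 (adjusted p = 0.607). Among the subunits that mark TRAPPIII, TRAPPC11 and TRAPPC12 were 1.59-fold and 1.66-fold lower (adjusted p = 2.38e-09 and 5.99e-05). TRAPPC8, of the same complex, was 1.33-fold higher (adjusted p = 0.000217), and TRAPPC13 stood at 0.04. The core genes TRAPPC3 (-0.20), TRAPPC5 (0.61), TRAPPC6A (0.27) and TRAPPC2B (0.26) were not called.

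The symbol rule also took 6 SEC14-like genes, which encode lipid-binding proteins and are not part of the transport machinery. SEC14L3 and SEC14L5 had the largest folds of all members, 45.0 and 18.1, with p-values many orders of magnitude above that of SEC11C (adjusted p = 0.000588 and 0.000141 in the authors' deposited table). SEC14L2 was 1.53-fold higher (adjusted p = 0.000210) and SEC14L1 was 1.60-fold lower (adjusted p = 3.16e-09). SEC14L4 and SEC14L6 are listed with the same log2 fold change, 0.89, which 377 genes of the table share to 3 decimals, so it says nothing of these genes. Without the SEC14-like genes 31 of 57 members were higher and 13 lower.

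Other genes of the pathway were taken from 7 lists of partners, of which 125 had a value. The counts below stand beside 29.7% of all genes called higher and 27.9% called lower. COPI partners and retrieval receptors included 12 higher and 3 lower of 16. ARFGAP3, a GTPase activator of the COPI GTPase ARF1, was 2.78-fold higher and the tether subunit RINT1 2.79-fold higher in the authors' deposited table (adjusted p = 3.85e-43 and 8.44e-32), while ARF3 was 2.48-fold lower (adjusted p = 1.17e-33). KDELR1, a retrieval receptor for ER residents, was 1.33-fold lower (adjusted p = 0.000129). The remaining COPI coat subunit, ARCN1 (delta-COP), whose symbol the rule did not take, was 1.85-fold higher (adjusted p = 3.22e-16).

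COPII accessory factors and cargo receptors were 13 higher and 3 lower of the 21 with an adjusted p. PREB, the exchange factor that loads SAR1 with GTP, was 2.40-fold higher (adjusted p = 8.48e-38) and YIF1A 2.84-fold higher (adjusted p = 1.04e-35) in the authors' deposited table. ERGIC1, a receptor cycling between ER and Golgi, was 3.74-fold lower (adjusted p = 4.00e-57), and KLHL12, a ubiquitin ligase adaptor for SEC31, 1.45-fold lower (adjusted p = 5.91e-08).

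Tethers and SNAREs had the largest median of the lists of transport partners, 0.85 over 26 genes. That median includes COG5, which had no usable adjusted p. Of the 25 with an adjusted p, 15 were higher and 4 lower. The SNAREs STX5 of the Golgi and STX18 of the ER were 3.25-fold and 2.89-fold higher in the authors' deposited table (adjusted p = 3.05e-52 and 2.00e-37). COG7 and RAB1B were 1.52-fold and 1.23-fold lower (adjusted p = 2.78e-05 and 0.00266).

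Among genes acting before and at the translocon, more were called higher than lower in each list. The shares called lower lay not far under the 27.9% of all genes. These lists are small, and their differences from all genes were not tested. In the list of signal recognition and targeting, 10 of 16 (62.5%) were higher and 3 (18.8%) lower. SRP68 of the signal recognition particle and SRPRB of its receptor were 2.94-fold and 2.91-fold higher in the authors' deposited table (adjusted p = 5.82e-71 and 3.80e-60). SRP9 and SRP14, which form the Alu domain of the same particle, were 1.59-fold and 1.69-fold lower (adjusted p = 1.41e-07 and 8.25e-13). Translocon partners were 14 higher (58.3%) and 5 lower (20.8%) of 24. SSR3 of the translocon-associated TRAP complex was 3.20-fold and TRAM1 2.04-fold higher (adjusted p = 3.20e-59 and 1.49e-28), whereas TRAM2 and the oligosaccharyltransferase subunit RPN2 were 2.23-fold and 1.65-fold lower (adjusted p = 8.69e-21 and 1.37e-17). Subunits of the ER membrane complex, a separate insertase, were 4 higher (44.4%) and 2 lower (22.2%) of 9. EMC7 and EMC8 were 2.17-fold and 1.85-fold higher, and EMC10 and EMC4 2.60-fold and 1.23-fold lower.

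**Figure D5:**
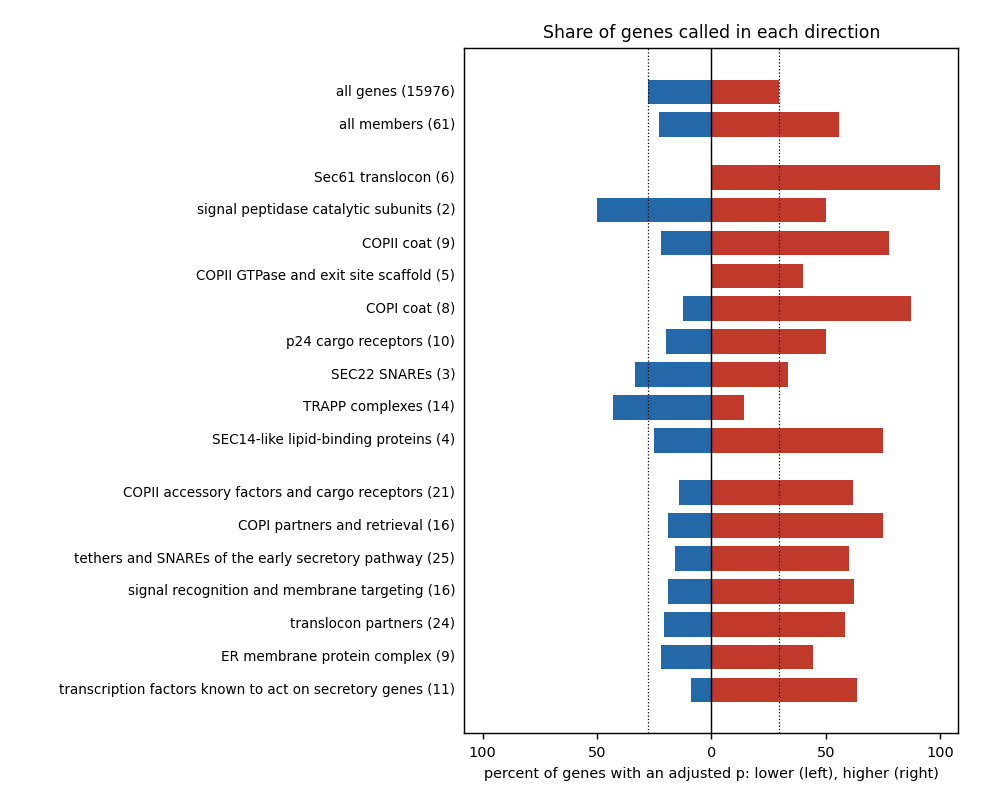
Percent of genes called lower (left of 0) and higher (right of 0) among those with an adjusted p, whose number stands in brackets, for all genes, the members, each role and each list of partners; dotted lines mark all genes at 27.9% and 29.7%. TRAPP is the only role in which the lower share (42.9%) exceeds the higher share (14.3%).

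Regulators known to act on secretory genes were 7 higher and 1 lower of 11. XBP1, a factor known to bind the core sequence shown above, was 6.23-fold higher in the authors' deposited table (adjusted p = 5.66e-158). ATF4 was 2.64-fold higher there (adjusted p = 5.01e-54). Which factor, if any, binds the matches upstream of members was not tested. CREB3L2, a membrane-bound factor known to drive SEC23A in cartilage, had a log2 fold change of 1.63 (adjusted p = 4.00e-29), and SEC23A itself was slightly lower, as above. Of the proteases that cut ATF6 in turn to free it from its membrane, MBTPS1 was 3.17-fold lower (adjusted p = 3.26e-50) and MBTPS2 1.94-fold higher (adjusted p = 5.83e-16). ATF6 stood at 0.34 (adjusted p = 0.000761). No activity of these factors was measured.

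Several limits apply to single members. Whether counting used strand is not stated in the labels or headers, and 18 members share exonic bases with another gene of the table, so their reads may not be separable. The share was 51.3% for TMED1 with DNM2, which was not called, and at most 10.5% for every other member. Annotated genes absent from the table were not counted, so members may share further bases with such genes. TRAPPC2 and TRAPPC2B are near-identical copies, and 8 pseudogenes named after TRAPPC2 are annotated in GENCODE 29, as are 4 named after SAR1A, so the values of these genes are uncertain. Markers of the line and of other cell types also differed between the sets. Of 6 tuft cell-like markers all were listed and 4 were lower, including POU2F3 (log2 fold change -1.71, adjusted p = 3.42e-89), and of 5 fibroblast markers 3 were lower. Of the 4 neuroendocrine markers listed 2 were higher and none lower, namely SYP (2.51, adjusted p = 1.73e-34) and INSM1 (1.81, adjusted p = 1.09e-16). None of 3 leukocyte markers and neither of the endothelial markers listed was called. Their part in the results was not tested, and changes in the mix of cells and in RNA per cell cannot be told apart.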

How the data were processed

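RNA-seq of H1048 cells was compared between 2 groups of 3 samples. STAR, HTSeq, Trimmomatic, DESeq2 and hg38 are listed in the submitters' processing notes; versions, annotation, strand and shrinkage are not stated there. The log2 fold changes, p-values and adjusted p-values are those the authors deposited, per the file headers, for set D to F over set A to C. Library letters are not tied to samples by any label, so 36 columns of values per library were not used. Depth, replicate spread and a test over replicates are therefore not given. Adjusted p-values listed at exactly 1 (977 of 16953 genes) were taken as missing, and a gene was called at an adjusted p under 0.05 over all genes.

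Members, lists and motifs were chosen with earlier results of these data known. Members called at least 2-fold, the smallest p of each role, paralogue pairs and, per list, up to 2 genes in each direction were named; ARCN1, CREB3L2, ATF6, MBTPS2 and the SEC11 pair were added after their values were seen. Planned protein alignments were not run. The Benjamini-Hochberg adjustment and the motif search were tested on simulated data. Coordinates are from GENCODE 29 (GRCh38), promoters from RefSeq. Python 3.11.15 was used with pandas 2.3.3, numpy 2.4.6, scipy 1.17.1 and matplotlib 3.10.9.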

Additional observations from a re-analysis of the deposited data

How the results depend on the processing

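No paired analysis was possible because no label ties the libraries to the samples and their replicate numbers, and leaving out each replicate in turn was not run for the same reason. The numbers of members called higher (34) and lower (14) were the same with Benjamini-Hochberg adjustment over all p-values. Subtracting the median fold change of all genes (0.06) could not change them, since no called member lies closer to 0 than SEC23A at -0.23. At a threshold of 0.01 they were 34 and 11, and without the SEC14-like genes 31 and 13. Requiring at least 2-fold left 8 higher and 3 lower, since this setting by construction drops the smaller changes. The median log2 fold change of the members was 0.41 with all listed and 0.4069 with those that have an adjusted p, 0.39 without the SEC14-like genes and 0.35 after that subtraction. Values per library were not used, so how near genes such as SEC14L3 or SEC16B lie to the limit of detection was not examined.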

Other observations

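SAR1B and SEC24A, which act at the same step of COPII assembly, lie head to head on chromosome 5 (134601144 to 134649271 on the minus strand and 134648789 to 134727823 on the plus strand, GRCh38). Their annotated genes overlap by 483 bases, of which 385 are exonic in both. Both were higher in the authors' deposited table, with log2 fold changes of 0.89 and 1.24, and the shared bases make up 3.51% and 5.35% of their exonic lengths. COPG2 overlaps MEST on the opposite strand by 228 exonic bases, and both were lower, at -1.10 and -0.76.

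Of 11 overlapping pairs in which both genes were called in the authors' deposited table, 9 were called in the same direction and 2 in opposite directions. The share over all overlapping genes was not computed, and reads from shared bases may not be separable. The count is therefore a description only. NCSTN, which encodes nicastrin of the gamma-secretase complex and shares 129 exonic bases with COPA on the opposite strand, was at -0.95 (adjusted p = 2.64e-22) while COPA was at 0.53. NUDT5 shares 387 exonic bases with SEC61A2 on the opposite strand and was at -0.43 (adjusted p = 0.000122), with SEC61A2 at 0.44. The 9 pairs with the same direction include SEC22A and PDIA5, a protein disulfide isomerase of the ER, which share 490 exonic bases on the same strand and were at 0.60 and 0.67. The pairs described singly were picked after their values were seen.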
